A study of Mus musculus with 18 samples.

Results

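Transcripts of 44 mitosis and G2/M genes were followed through positively selected thymocytes of wild-type (WT) mice and of mice lacking either of 2 subunits of the linear ubiquitin chain assembly complex. The genes were chosen by name for their roles between G2 phase and cytokinesis and not by a cut-off on measured values, but with earlier results of these data known. They were found by Entrez Gene ID among the 27179 genes counted. A gene was tested if it reached 0.5 CPM (its counts scaled to a common library total) in at least 3 samples. All 44 passed and stand among 12798 genes tested. The lowest value was that of *Ccnb1*, which had 7 counts (0.461 CPM before the scaling used below) in 1 library.

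RNA was sequenced from 18 sorted samples. CD69+ thymocytes of 9 mice (3 WT, 3 Sharpin cpdm, 3 Hoil ΔCd4) were split by their surface MHC I into a low and a high fraction. CD69 appears after T-cell receptor signalling, and MHC I increases with maturation, which makes the high fraction the more mature one. Hoil ΔCd4 mice carry a floxed *Rbck1* gene, which encodes HOIL-1, and a Cre recombinase driven by *Cd4* sequences that deletes it from the double-positive stage of T-cell development onwards. Sharpin cpdm mice carry a spontaneous *Sharpin* mutation in every cell. They came from a C57BL/Ka stock, had been crossed 2 times to C57BL/6 and, per the study, were still largely C57BL/Ka. WT mice were C57BL/6, and Hoil ΔCd4 mice were made on or backcrossed to C57BL/6. Strain and the Sharpin cpdm genotype therefore cannot be told apart in any difference between Sharpin cpdm and the other mice. Ages of these mice were not given in the sources used here. Cells with CD25, CD44 or markers of other lineages on their surface were gated out, so thymocytes that carry CD25 should be few. The 2 fractions of a mouse come from 1 animal, and each group has n = 3 mice.

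A cell enters mitosis when CDK1, bound to A-type and B-type cyclins, becomes active. The genes needed from then on are transcribed together late in the cell cycle and are repressed in cells that have left it, largely through the MuvB complex, which binds a short promoter element called the cell cycle genes homology region (CHR), and through NF-Y, which binds CCAAT boxes. In the thymus, dividing cells are best known from the stage after the pre-T-cell receptor signal and again among mature single-positive cells before they leave.

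By role, the list holds CDK1, its cyclins and transcription (*Cdk1*, *Ccna2*, *Ccnb1*, *Ccnb2*, *Foxm1*, *Cdca3*), mitotic kinases and the spindle checkpoint (*Plk1*, *Aurka*, *Ttk*, *Bub1*, *Bub1b*), the ubiquitin arm of anaphase (*Cdc20*, *Ube2c*) and the chromosomal passengers (*Aurkb*, *Birc5*, *Cdca8*). It also holds the centromere and kinetochore (*Cenpa*, *Cenpe*, *Cenpf*, *Knl1*, *Ndc80*, *Nuf2*, *Spc25*), the spindle (*Tpx2*, *Nusap1*, *Hmmr*, *Tacc3*, *Kif11*, *Kif2c*, *Ckap2l*), the central spindle and cytokinesis (*Prc1*, *Kif4*, *Kif20a*, *Kif23*, *Racgap1*, *Ect2*, *Anln*, *Iqgap3*) and chromosome structure (*Mki67*, *Top2a*, *Smc2*, *Smc4*, *Ncapd2*, *Ncapg*). Reads on 12 of these genes could in part belong to another gene whose exons overlap theirs, since the strand setting of the counting was not given. The overlap was widest for *Kif20a*, with 31.8% of its exon bases shared with *Cdc23*, followed by *Ube2c* with 22.8% shared with *Tnnc2*.

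The promoters of these genes were searched for the letters of these elements, and 9 are shown because they cover the range found. Each runs from 100 bases before to 14 bases after the RefSeq start on GRCm38.p6, 5′ to 3′ on the strand of the gene, and capitals mark CHR letters (TTTGAA or TTCGAA) and CCAAT boxes on either strand, so that TTCAAA and ATTGG are matches on the opposite strand. *Cdk1*, the mitotic kinase (chr10:69352899-69353012, minus strand), *Ccnb2*, a B-type cyclin (chr9:70421541-70421654, minus), *Cdc20*, the activator of the anaphase-promoting complex (chr4:118437330-118437443, minus), *Hmmr*, a spindle protein (chr11:40733424-40733537, minus), and *Kif11*, the motor that separates spindle poles (chr19:37376282-37376395, plus), held both elements.
Cdk1: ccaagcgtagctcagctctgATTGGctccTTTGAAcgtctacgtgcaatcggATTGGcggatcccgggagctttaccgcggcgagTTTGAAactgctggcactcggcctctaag
Ccnb2: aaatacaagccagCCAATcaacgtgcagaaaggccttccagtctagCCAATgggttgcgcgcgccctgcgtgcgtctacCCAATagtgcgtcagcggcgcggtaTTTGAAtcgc
Cdc20: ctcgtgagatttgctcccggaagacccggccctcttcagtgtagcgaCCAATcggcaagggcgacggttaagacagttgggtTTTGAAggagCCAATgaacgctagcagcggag
Hmmr: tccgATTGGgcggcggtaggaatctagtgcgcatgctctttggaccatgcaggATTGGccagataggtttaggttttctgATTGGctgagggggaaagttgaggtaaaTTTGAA
Kif11: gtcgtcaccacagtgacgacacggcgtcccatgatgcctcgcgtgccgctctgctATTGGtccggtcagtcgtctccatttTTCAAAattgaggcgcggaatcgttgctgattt

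*Ccnb1*, the other B-type cyclin (chr13:100786473-100786586, minus), held 2 CCAAT boxes and no CHR letters, and *Nusap1*, a microtubule-binding spindle protein (chr2:119618198-119618311, plus), held neither. *Racgap1* (chr15:99651643-99651756, minus) and *Kif23* (chr9:61946786-61946899, minus) encode the 2 proteins of centralspindlin, the complex that organizes the midzone of the dividing cell. They are shown as a pair because their motifs lie alike, an opposite-strand CCAAT box just before the start and CHR letters just after it, while their transcripts behaved differently below.
Ccnb1: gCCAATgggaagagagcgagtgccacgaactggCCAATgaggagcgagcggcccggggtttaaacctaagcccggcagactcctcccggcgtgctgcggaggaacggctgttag
Nusap1: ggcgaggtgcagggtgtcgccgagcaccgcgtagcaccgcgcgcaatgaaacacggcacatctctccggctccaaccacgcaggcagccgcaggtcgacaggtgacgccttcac
Racgap1: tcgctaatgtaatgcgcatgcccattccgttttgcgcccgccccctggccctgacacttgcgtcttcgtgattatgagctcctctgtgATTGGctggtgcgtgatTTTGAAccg
Kif23: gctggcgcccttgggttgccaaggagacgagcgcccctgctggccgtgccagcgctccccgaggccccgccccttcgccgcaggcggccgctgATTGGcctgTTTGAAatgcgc

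Over the whole RefSeq window, 250 bases before to 50 after the start, 38 of the 44 genes had a promoter entry. *Ccna2*, *Foxm1*, *Tpx2*, *Aurkb*, *Smc4* and *Kif20a* did not. CHR letters were found in 32 of the 38 (84.2%), against 13.8% of the 9985 tested genes with an entry and 19.4% of all 27025 listed genes. A CCAAT box was found in 29 (76.3%, against 39.2% of tested genes), at least 2 CCAAT boxes in 20 (52.6%, against 15.2%) and both elements in 27 (71.1%, against 6.04%). Matches were counted on both strands and could share bases, and the first listed start was used for *Prc1* and *Ect2*, which have 2. Many of the CHR letters lie just after the start: in the bases before it alone, 15 of the 38 genes (39.5%) held them, against 12.2% of tested genes. A match describes letters and not binding.

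**Figure D1:**
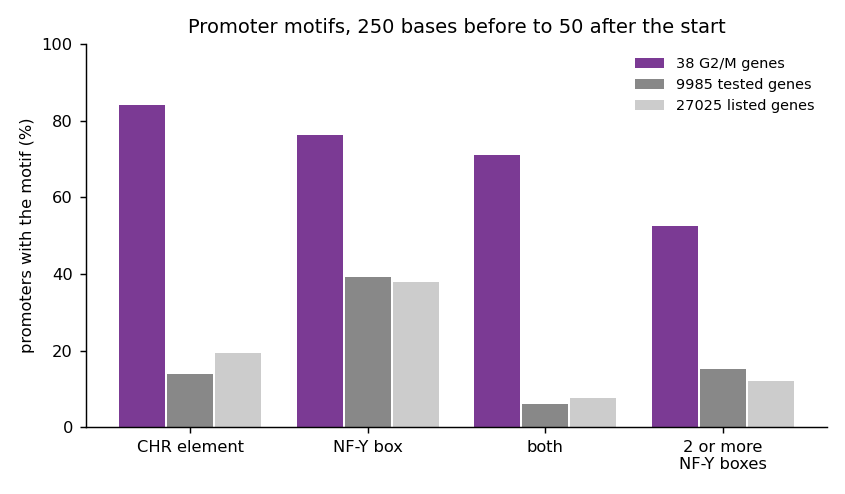
Share of promoters, in percent, that hold CHR letters, the NF-Y box (CCAAT), both, or at least 2 NF-Y boxes, for 38 of the G2/M genes, 9985 tested genes and all 27025 listed genes. The G2/M genes stand highest in each category, from 52.6% for at least 2 boxes to 84.2% for CHR letters.

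Each library held 10577966 to 16266128 reads assigned to genes, and 11549 to 55900 of them fell on the 44 genes. *Rbck1* stood at 0.271 to 0.778 CPM in Hoil ΔCd4 MHC I low and 3.72 to 8.94 CPM in MHC I high libraries, against 217 to 268 CPM in WT libraries. *Sharpin* transcripts were still present in Sharpin cpdm libraries (66.4 to 77.9 CPM, against 85.9 to 97.3 CPM in WT). The alpha-beta thymocyte markers were high in every library, while marker lists of other cells summed to 3.44 to 6.48 CPM for B cells, mostly *Cd79b* and *Cd79a*, 22.7 to 32.7 CPM for myeloid cells, mostly *Cst3* and *Itgam*, 0.672 to 1.51 CPM for red cells and 5.59 to 11.6 CPM for thymic epithelium, nearly all *Epcam*. Of their defining genes, *Pax5*, *Foxn1* and *Hbb-bs* stayed at 0.126 CPM or less. Lists of other T cells were higher. The 5 innate-like and gamma-delta T-cell genes summed to 23.9 to 51.4 CPM in MHC I low and 66.6 to 87.1 CPM in MHC I high libraries. The 4 regulatory T-cell genes summed to 405 to 1080 CPM, mostly *Ikzf2*, while *Foxp3* had 0.424 to 6.79 CPM. The part of all these cells in the results was not tested. All 3 WT mice had a female expression pattern, whereas 1 of 3 Hoil ΔCd4 and 1 of 3 Sharpin cpdm mice did, so sex and genotype are partly confounded. The MHC I high library of Hoil ΔCd4 mouse 2, a mouse of male pattern, held 63.6 CPM of *Xist* against 0.593 CPM in its MHC I low library, and it had the highest *Rbck1* level of its group. Counts of genes called against WT in Hoil ΔCd4 MHC I high cells are therefore also given without this mouse, a choice made for the other gene lists after seeing the data. Where a transcript is higher or lower in such bulk samples, more or fewer cells that carry it and more or less of it per cell cannot be told apart.

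Per kilobase of gene length, mean levels over the 18 libraries ranged from 0.903 RPKM, which is CPM divided by gene length in kilobases, for *Iqgap3*, a scaffold at the dividing cell cortex, to 197 RPKM for *Smc4*, a core subunit of condensin. The next highest were the condensin subunit *Ncapd2* with 42.1 RPKM, the DNA topoisomerase *Top2a* with 35.4 RPKM and the kinesin *Kif23* with 23.4 RPKM. *Cdk1* had 5.05 RPKM and *Ccnb1* only 2 RPKM, with *Ttk* and *Iqgap3* lower still. From here on, levels are CPM scaled by the trimmed mean of M-values (TMM). Differences are log2 differences from 1 limma model of all 18 samples, with Benjamini-Hochberg adjustment over the 12798 genes, and a gene is called higher or lower where its adjusted p is under 0.05.

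Added over all 44 genes, G2/M transcripts were higher in the MHC I high than in the MHC I low fraction of each of the 9 mice. In WT mice the sum was 1184 ± 83.4 CPM (SD, n = 3) in the low fraction and 2833 ± 272 CPM in the high one. It was 1336 ± 99 and 3594 ± 261 CPM in Hoil ΔCd4 mice, and 969.7 ± 46.2 and 3506 ± 469 CPM in Sharpin cpdm mice. The highest Sharpin cpdm MHC I low sum (998.5 CPM) lay below the lowest of WT (1124 CPM), and the lowest Hoil ΔCd4 MHC I high sum (3294 CPM) lay above the highest of WT (3077 CPM), which the lowest Sharpin cpdm sum (3015 CPM) did not. The MHC I high sum was 2.25, 2.26 and 2.68 times the MHC I low sum in the WT mice, 2.36, 2.66 and 3.09 times in Hoil ΔCd4 mice and 3.29, 3.57 and 3.96 times in Sharpin cpdm mice. *Smc4* alone supplied 356 to 1279 CPM of a sum, and without it the ratios were 2.36 to 2.85, 2.91 to 4.08 and 3.65 to 4.39. With *Smc4* left out, the MHC I low sums of Sharpin cpdm mice (560.3 to 634.3 CPM) overlapped those of WT (628 to 700.2 CPM). In MHC I high cells the Hoil ΔCd4 (2273 to 2749 CPM) and Sharpin cpdm sums (2043 to 2783 CPM) then both lay above WT (1540 to 1798 CPM). The female mice of the mutant groups had MHC I high sums of 3772 CPM (Hoil ΔCd4 mouse 3) and 3553 CPM (Sharpin cpdm mouse 2), both above the 3 WT mice, which were all female. In MHC I low cells Hoil ΔCd4 mouse 3 had 1222 CPM, within the WT range of 1124 to 1279 CPM, and Sharpin cpdm mouse 2 had 994.2 CPM, below it. The male Hoil ΔCd4 mice had 1393 and 1394 CPM there. The part of sex in these sums was not tested.

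**Figure D2:**
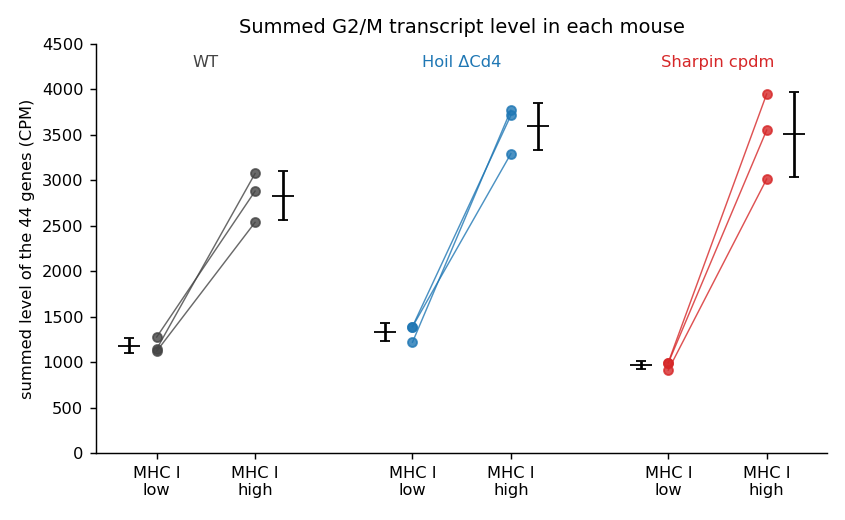
Summed level of the 44 genes in CPM (y axis) in each MHC I low and MHC I high library, with a line joining the fractions of 1 mouse and black bars giving the mean ± SD of 3 mice. All 9 lines rise, and the Sharpin cpdm lines start lowest, at 916.4 to 998.5 CPM.

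The 2 fractions were compared within each genotype. In WT mice, 43 of the 44 genes were called higher in MHC I high cells and 1, *Kif23*, lower, against 27.5% of all genes tested called higher and 26.8% lower. In Hoil ΔCd4 mice all 44 were called higher, against 23.5% of all genes higher and 21.7% lower. In Sharpin cpdm mice 43 were called higher and *Kif23* was not called, against 27.2% of all genes higher and 27.4% lower. The median log2 difference of the 44 genes was 1.86, 2.30 and 2.93 in WT, Hoil ΔCd4 and Sharpin cpdm mice, while that of all genes tested lay between −0.00423 and 0.000987. In 21 other fits, among them those that left out 1 mouse, every gene but *Kif23* kept its call wherever it was tested, and 41 of the 44 could be tested where 10 counts were asked of every sample.

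**Figure D3:**
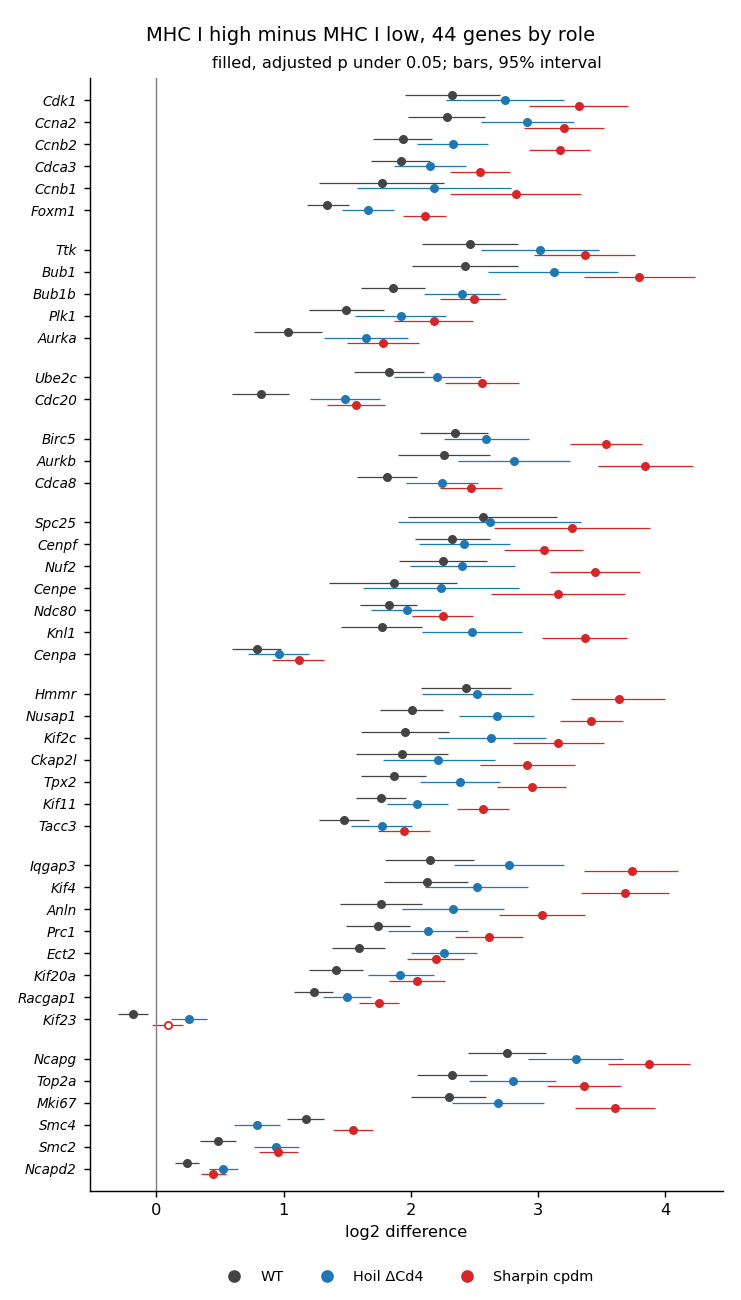
Log2 difference between MHC I high and MHC I low cells (x axis) for the 44 genes, grouped by role, in WT, Hoil ΔCd4 and Sharpin cpdm mice, with 95% intervals and filled points for adjusted p under 0.05. *Kif23* lies near 0, the condensin genes *Ncapd2* and *Smc2* are the next lowest in WT, and *Ncapg* is highest in all 3 genotypes.

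Among CDK1, its cyclins and their transcription factor, all 6 genes were called higher in MHC I high cells of each genotype. *Cdk1* stood at 2.69, 3.13 and 4.38 CPM in the MHC I low libraries of WT mice 1 to 3, at 5.52, 5.71 and 3.26 CPM in those of Hoil ΔCd4 mice and at 2.84, 2.15 and 3.76 CPM in those of Sharpin cpdm mice. In the MHC I high libraries it reached 19.2, 16.1 and 16.4 CPM, 26.04, 33.4 and 33.1 CPM, and 21.7, 29.1 and 31.7 CPM in the same order. The fractions did not overlap, and every mutant MHC I high library lay above the 3 WT ones. Its log2 difference between fractions was 2.33 in WT (SE 0.179, adjusted p = 2.81e-10, limma), 2.74 in Hoil ΔCd4 and 3.32 in Sharpin cpdm mice.

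*Ccnb2*, whose product activates CDK1, had 4.80, 4.61 and 4.61 CPM in WT mice, 7.77, 6.32 and 5.43 CPM in Hoil ΔCd4 and 2.70, 3.10 and 3.43 CPM in Sharpin cpdm MHC I low libraries. Its MHC I high values were 19.4, 18.8 and 17.4 CPM, 27.5, 33.1 and 36.3 CPM, and 23.5, 28.7 and 31.5 CPM. In MHC I low cells the 3 genotypes did not overlap, with Sharpin cpdm lowest and Hoil ΔCd4 highest, and in MHC I high cells both mutants lay above WT. The difference between fractions was 1.94 in WT (SE 0.113, adjusted p = 2.29e-15, limma), 2.33 in Hoil ΔCd4 and 3.17 in Sharpin cpdm mice, and its adjusted p was the smallest of the 44 in the last (2.92e-20).

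*Ccnb1*, the scarcest cyclin here, had 1.60, 1.22 and 2.11 CPM in WT mice, 2.25, 1.90 and 2.10 CPM in Hoil ΔCd4 and 0.473, 1.72 and 1.09 CPM in Sharpin cpdm MHC I low libraries. It rose to 4.45, 5.40 and 6.62 CPM, 7.97, 10.8 and 10.2 CPM, and 5.89, 8.26 and 9.28 CPM. In MHC I low cells Hoil ΔCd4 lay above Sharpin cpdm libraries and both overlapped WT, and in MHC I high cells Hoil ΔCd4 lay above WT. The log2 difference between fractions was 1.77 in WT (SE 0.239, adjusted p = 5e-07, limma). *Ccna2*, the A-type cyclin and the most abundant gene of this role by CPM, had 7.94, 5.37 and 8.05 CPM in WT mice, 9.88, 9.08 and 6.17 CPM in Hoil ΔCd4 and 4.93, 5.85 and 7.45 CPM in Sharpin cpdm MHC I low libraries. Its MHC I high values were 36.5, 37.6 and 34.0 CPM, 51.8, 71.4 and 60.5 CPM, and 45.3, 57.5 and 60.8 CPM. The low fractions of the genotypes overlapped and the high fractions of both mutants lay above WT.

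*Foxm1* encodes the transcription factor that works with MuvB at G2/M promoters. It had 13.4, 13.4 and 12.6 CPM in WT mice, 15.5, 14.5 and 13.5 CPM in Hoil ΔCd4 and 10.7, 11.5 and 11.5 CPM in Sharpin cpdm MHC I low libraries, and 34.3, 29.9 and 33.9 CPM, 40.5, 51.5 and 45.2 CPM, and 43.3, 48.4 and 55.6 CPM in MHC I high ones. All MHC I high libraries of the mutants lay above those of WT. The rise was the smallest of this role in all 3 genotypes, 1.34 on the log2 scale in WT (SE 0.0806, adjusted p = 4.62e-15, limma), 1.67 in Hoil ΔCd4 and 2.11 in Sharpin cpdm mice.

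The 5 kinase and checkpoint genes and the 2 genes of the anaphase ubiquitin system were likewise called higher in MHC I high cells of each genotype. *Bub1b*, a kinase-like protein of the spindle checkpoint, had 9.03, 7.93 and 12.7 CPM in WT mice, 13.5, 11.2 and 9.90 CPM in Hoil ΔCd4 and 12.2, 8.87 and 10.1 CPM in Sharpin cpdm MHC I low libraries. Its MHC I high values were 35.7, 35.8 and 35.9 CPM, 54.7, 64.3 and 61.5 CPM, and 51.5, 58.1 and 62.2 CPM, so the WT mice hardly differed and all 6 mutant mice lay above them. *Cdc20*, the activator of the anaphase-promoting complex, rose less in each genotype. It had 9.67, 9.66 and 10.9 CPM in WT mice, 13.4, 10.2 and 9.02 CPM in Hoil ΔCd4 and 7.97, 9.47 and 10.3 CPM in Sharpin cpdm MHC I low libraries, then 20.7, 15.5 and 17.5 CPM, 24.6, 32.7 and 31.9 CPM, and 25.2, 27.3 and 29.5 CPM. Its log2 difference of 0.82 in WT (SE 0.109, adjusted p = 1.62e-07, limma) compares with 2.47 for the checkpoint kinase *Ttk*, the largest of these genes in WT. *Bub1*, another checkpoint kinase, rose by 2.42, 3.12 and 3.79 in WT, Hoil ΔCd4 and Sharpin cpdm mice.

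The chromosomal passengers, which correct wrong attachments of chromosomes to the spindle, were called higher in MHC I high cells of each genotype (3 of 3). *Cdca8* (borealin) had 4.03, 4.99 and 5.40 CPM in WT mice, 5.59, 6.23 and 6.17 CPM in Hoil ΔCd4 and 4.53, 5.42 and 4.18 CPM in Sharpin cpdm MHC I low libraries. It reached 17.5, 16.9 and 16.6 CPM, 22.3, 30.3 and 32.4 CPM, and 24.1, 28.3 and 28.3 CPM, with all mutant mice above WT. *Birc5* (survivin) had the smallest adjusted p of the 44 genes in WT (log2 difference 2.34, SE 0.132, adjusted p = 9.42e-16, limma), and its differences were 2.59 and 3.54 in Hoil ΔCd4 and Sharpin cpdm mice. *Aurkb*, the kinase of the complex, rose by 2.26, 2.81 and 3.84.

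All 7 centromere and kinetochore genes were called higher in MHC I high cells of each genotype, *Cenpa* least. *Cenpa* encodes the histone H3 variant that marks centromeres, and its log2 difference was 0.79 in WT mice, 0.96 in Hoil ΔCd4 mice and 1.12 in Sharpin cpdm mice. *Cenpf*, a large kinetochore protein, had 6.91, 6.46 and 9.46 CPM in WT mice, 12.7, 14.8 and 8.14 CPM in Hoil ΔCd4 and 5.61, 6.97 and 7.11 CPM in Sharpin cpdm MHC I low libraries. In MHC I high libraries it had 40.4, 33.0 and 39.0 CPM, 52.6, 68.3 and 60.0 CPM, and 47.4, 52.4 and 66.8 CPM, and again no mutant library fell within the WT range. Hoil ΔCd4 mouse 3 had the lowest *Cenpf* level of its group in MHC I low cells, as it had for *Cdk1*. The outer kinetochore genes *Ndc80*, *Nuf2* and *Spc25* rose by 1.83, 2.25 and 2.57 in WT mice.

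The 7 spindle genes were also called higher in each genotype. *Kif11*, the kinesin that pushes spindle poles apart, had 19.1, 19.9 and 22.7 CPM in WT mice, 31.2, 28.8 and 24.6 CPM in Hoil ΔCd4 and 15.1, 18.1 and 19.2 CPM in Sharpin cpdm MHC I low libraries. Its MHC I high values were 72.3, 66.8 and 69.7 CPM, 104, 125 and 116 CPM, and 83.3, 102 and 128 CPM. The 3 Hoil ΔCd4 mice lay above the 3 WT mice in both fractions. The log2 differences were 1.76 (SE 0.0936, adjusted p = 3e-13, limma), 2.05 and 2.56 in WT, Hoil ΔCd4 and Sharpin cpdm mice. *Nusap1*, which held no CHR letters or CCAAT box, rose by 2.01, 2.68 and 3.42, and *Hmmr*, with both elements, by 2.44, 2.52 and 3.63.

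Of the 8 central spindle and cytokinesis genes, 7 were called higher in MHC I high cells of each genotype and *Kif23* stood apart. *Racgap1* had 14.2, 15.1 and 17.2 CPM in WT mice, 19.5, 21.4 and 20.6 CPM in Hoil ΔCd4 and 15.2, 15.6 and 17.2 CPM in Sharpin cpdm MHC I low libraries, and 39.1, 36.0 and 35.4 CPM, 53.2, 61.9 and 57.8 CPM, and 48.9, 51.8 and 61.6 CPM in MHC I high ones. *Kif23*, its partner in centralspindlin, had 81.0, 75.3 and 78.9 CPM in WT mice, 73.0, 76.8 and 65.8 CPM in Hoil ΔCd4 and 81.0, 81.5 and 91.6 CPM in Sharpin cpdm MHC I low libraries. Its MHC I high values were 78.7, 65.8 and 66.5 CPM, 89.9, 82.1 and 85.6 CPM, and 84.4, 87.8 and 95.7 CPM. *Racgap1* thus rose by 1.24 in WT (SE 0.0759, adjusted p = 7.62e-15, limma), while *Kif23* fell by 0.18 (SE 0.0569, adjusted p = 0.00766), with the fractions overlapping. In Hoil ΔCd4 mice *Kif23* was called higher by 0.26 (adjusted p = 0.00306, limma), and in Sharpin cpdm mice its difference was 0.09 (adjusted p = 0.215). The WT call for *Kif23* was lost in 4 of 21 other fits, with edgeR (adjusted p = 0.0908), DESeq2 (0.106), without WT mouse 2 (0.0817) and without WT mouse 3 (0.26, log2 difference −0.12), and the Hoil ΔCd4 call in 1, without Hoil ΔCd4 mouse 3.

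*Mki67*, the coat protein of mitotic chromosomes and a common marker of dividing cells, had 41.4, 43.0 and 48.3 CPM in WT mice, 67.4, 60.0 and 43.4 CPM in Hoil ΔCd4 and 25.3, 26.2 and 32.8 CPM in Sharpin cpdm MHC I low libraries. It had 255, 195 and 209 CPM, 315, 396 and 352 CPM, and 273, 336 and 403 CPM in MHC I high ones. The 3 Sharpin cpdm mice were lowest in the low fraction, and both mutants lay above WT in the high fraction. Its log2 differences were 2.30 (SE 0.137, adjusted p = 6.32e-09, limma), 2.69 and 3.61. *Top2a*, which untangles sister chromatids, followed with 45.1, 44.1 and 54.0 CPM, 62.8, 58.6 and 43.4 CPM, and 30.3, 34.7 and 41.3 CPM in MHC I low and 260, 208 and 242 CPM, 327, 422 and 369 CPM, and 294, 358 and 429 CPM in MHC I high libraries, in the same order of genotypes (WT, then Hoil ΔCd4, then Sharpin cpdm).

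The 4 condensin genes differed among themselves. *Ncapg*, a subunit of condensin I, had the largest log2 difference of the 44 genes in each genotype, 2.76, 3.29 and 3.87. *Smc2*, shared by both condensins, rose by 0.48, 0.94 and 0.96, and *Ncapd2*, also of condensin I, by 0.24, 0.53 and 0.45. *Smc4*, the partner of SMC2, had 518, 496 and 579 CPM in WT mice, 612, 634 and 588 CPM in Hoil ΔCd4 and 356, 394 and 364 CPM in Sharpin cpdm MHC I low libraries. Its MHC I high values were 1279, 1000 and 1234 CPM, 1021, 966 and 1187 CPM, and 972, 1122 and 1167 CPM. In MHC I low cells the 3 genotypes did not overlap, and in MHC I high cells they did. *Smc4* was the only one of the 44 genes with a smaller difference in Hoil ΔCd4 (0.79) than in WT mice (1.18), and the difference between these changes (−0.38, SE 0.111) had an adjusted p of 0.18 (limma).

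**Figure D4:**
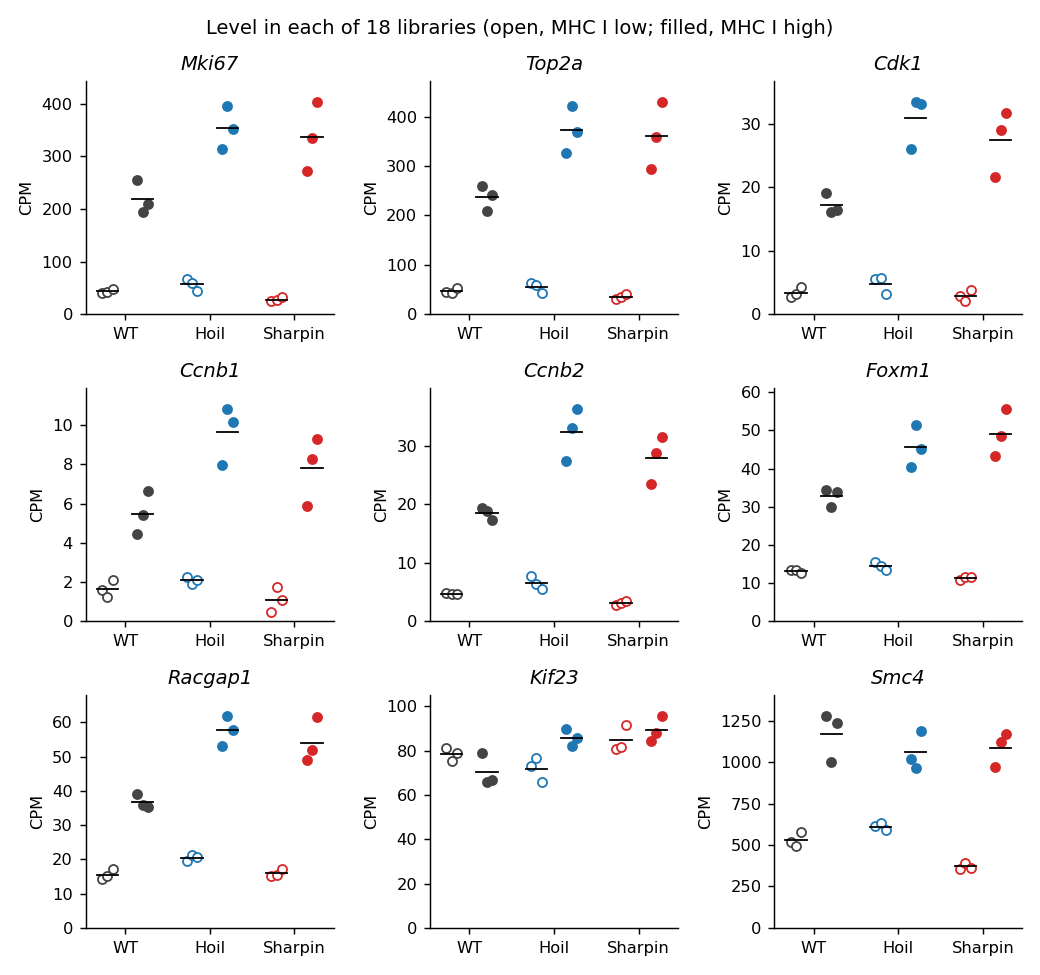
Level in CPM (y axis, from 0) of 9 genes in each of the 18 libraries, with open points for MHC I low, filled points for MHC I high and a line at the mean of 3 mice. *Kif23* stays between 65.8 and 95.7 CPM throughout, whereas *Racgap1* separates the fractions, and the MHC I high points of *Smc4* overlap between genotypes.

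In MHC I high cells, Hoil ΔCd4 mice had 35 of the 44 genes called higher than WT and none lower, against 3.84% of all genes called higher and 2.81% lower. The median log2 difference was 0.71 and that of all genes tested −0.000266. By role, 5 of 6 CDK1 and cyclin genes, 5 of 5 kinases, 2 of 2 anaphase genes, 3 of 3 passengers, 6 of 7 spindle genes, 7 of 8 cytokinesis genes and 5 of 6 chromosome structure genes were called, but only 2 of 7 centromere and kinetochore genes (*Cenpf* and *Knl1*). The smallest p-values were those of *Ect2*, the exchange factor that starts the cleavage furrow (0.94, SE 0.125, adjusted p = 1.45e-05, limma), *Racgap1* (0.68, SE 0.0909, adjusted p = 1.46e-05) and *Ncapd2* (0.35, SE 0.0553, adjusted p = 0.000124). *Ect2* stood at 33.1, 40.3 and 41.8 CPM in Hoil ΔCd4 and 21.5, 20.9 and 19.7 CPM in WT MHC I high libraries. *Cdk1* was higher by 0.90, *Ccnb2* by 0.85, *Ccna2* by 0.83, *Mki67* by 0.73, *Top2a* by 0.66 and *Foxm1* by 0.47.

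Which of these genes passed depended on single mice, and the size of the difference less so. Without Hoil ΔCd4 mouse 2, whose MHC I high library held *Xist*, 10 genes were called (1.34% of all genes in either direction), and without mouse 3 of that group 23 were. Without WT mouse 1, 2 or 3 the counts were 18, 22 and 14, and without sample quality weights 22. The median stayed between 0.62 and 0.78 when any of the 9 mice was left out. *Ccnb2*, *Cdc20*, *Cdca8*, *Tpx2*, *Nusap1*, *Kif11*, *Racgap1*, *Ect2* and *Ncapd2* were called in all 21 other fits. With *Xist* as a covariate for sex, 25 were called.

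Sharpin cpdm MHC I high cells had 33 of the 44 genes called higher than WT and none lower, against 4.15% of all genes called higher and 4.47% lower, with a median of 0.58. The smallest p-values were those of *Ncapd2* (0.34, SE 0.0508, adjusted p = 2.51e-05, limma), *Racgap1* (0.56, SE 0.0834, adjusted p = 2.64e-05) and *Foxm1* (0.55, SE 0.0886, adjusted p = 0.000104). *Tpx2*, which activates Aurora A on the spindle, had the largest difference (0.75). *Kif23* was higher in both mutants here, by 0.36 in Sharpin cpdm (adjusted p = 0.000219, limma) and 0.30 in Hoil ΔCd4 mice (adjusted p = 0.00597). Without Sharpin cpdm mouse 2 or 3 the count was 15 or 14, without WT mouse 2 or 3 it was 20 or 12, and without quality weights it was 16, while the median ranged from 0.45 to 0.71 over the 9 mice left out. *Foxm1*, *Cdca3*, *Bub1b*, *Cdca8*, *Tpx2*, *Kif11*, *Racgap1*, *Ect2* and *Ncapd2* were called in all 21 other fits.

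These 2 comparisons share the WT libraries. Of the 44 genes, 32 were called higher in both, *Bub1*, *Hmmr* and *Prc1* in Hoil ΔCd4 alone and *Nuf2* in Sharpin cpdm alone, which does not show that the mutants differ for them. *Ccnb1*, *Cenpa*, *Cenpe*, *Ndc80*, *Spc25*, *Ckap2l*, *Iqgap3* and *Smc4* were called in neither. *Smc4* had values below 0 in both (−0.19 in Hoil ΔCd4, adjusted p = 0.199, and −0.13 in Sharpin cpdm, adjusted p = 0.315, limma). Compared directly in MHC I high cells, Hoil ΔCd4 and Sharpin cpdm mice had none of the 44 genes called, against 6.73% of all genes in either direction. limma gave 1 of the 44 genes an unadjusted p under 0.05 (*Ect2*, 0.30, 95% interval 0.05 to 0.56), against 2715 of all 12798 genes tested. edgeR and DESeq2 called 0 of the 44, and their median difference in limma was 0.09.

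**Figure D5:**
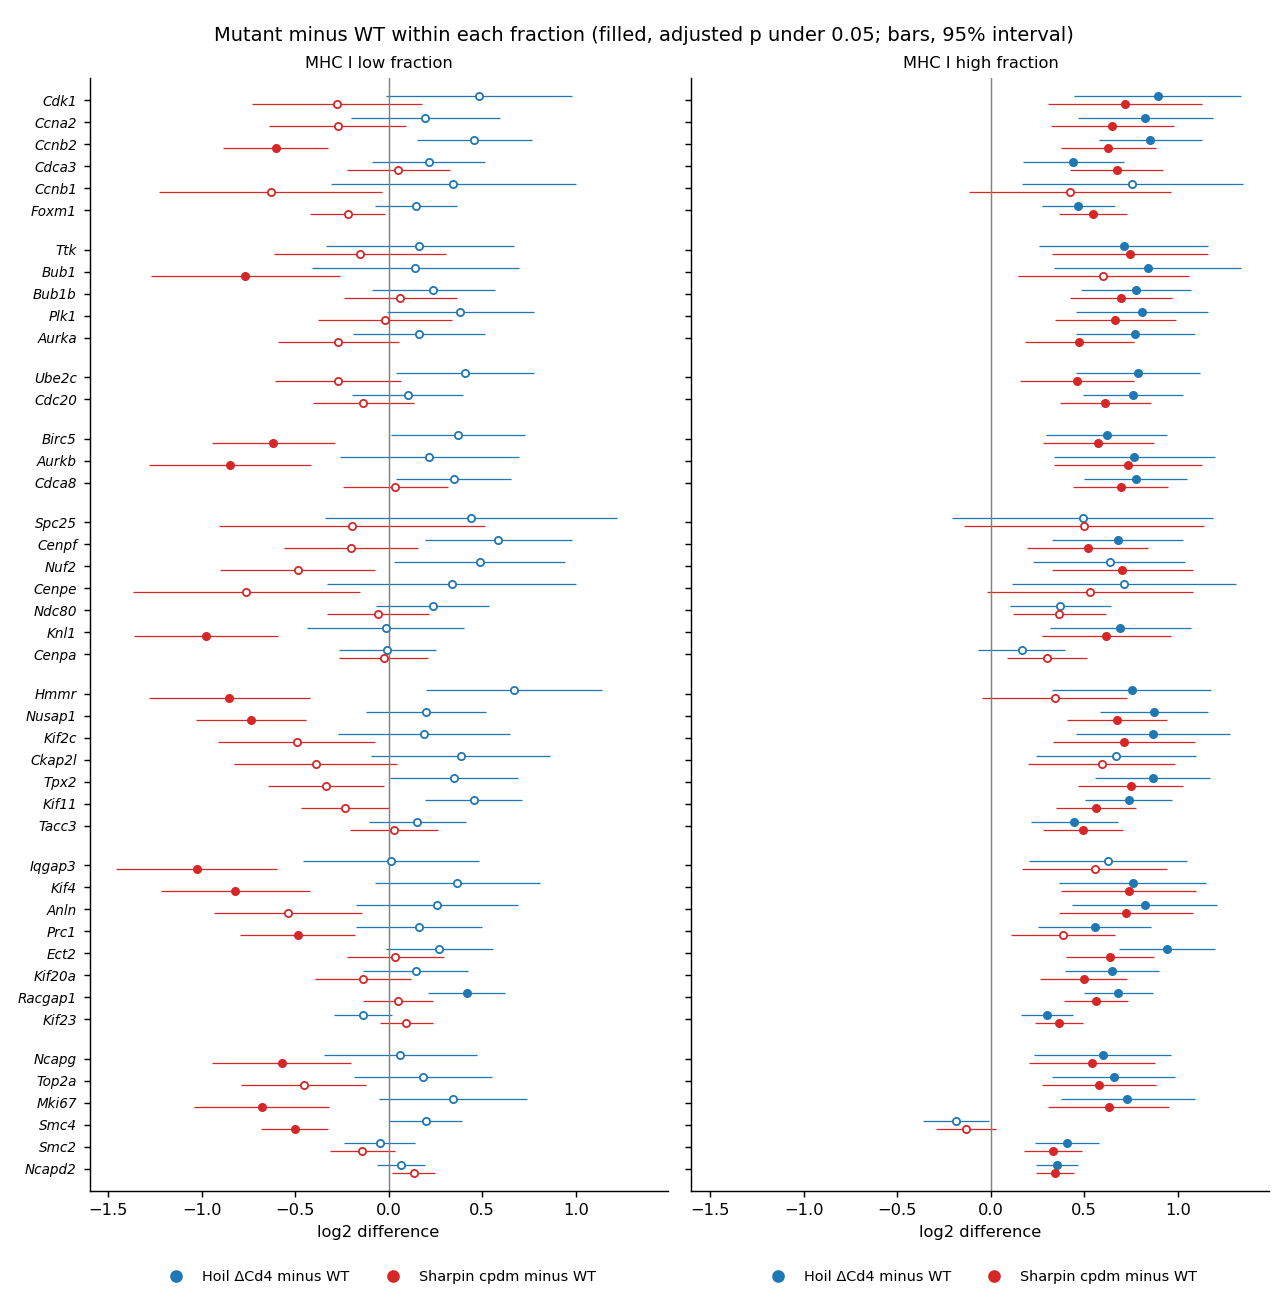
Log2 difference between each mutant and WT (x axis) in MHC I low cells (left) and MHC I high cells (right) for the 44 genes by role, with 95% intervals and filled points for adjusted p under 0.05. In the high fraction both mutants lie right of 0 for all genes but *Smc4*, and in the low fraction Sharpin cpdm points lie mostly left of 0, with 13 filled.

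In MHC I low cells, Hoil ΔCd4 mice had 1 of the 44 genes called higher than WT, and none lower, against 0.422% of all genes higher and 0.563% lower. It was *Racgap1*, with all 3 Hoil ΔCd4 libraries above the 3 WT ones (0.42, SE 0.101, adjusted p = 0.0345, limma). It was not called in 6 of 21 other fits, among them those without WT mouse 1 or 2 or Hoil ΔCd4 mouse 2, where the count was 0, and it was not called without Hoil ΔCd4 mouse 3. The median was 0.23, with 40 of the 44 values above 0. An unadjusted p under 0.05 (limma) was reached by 11 of the 44 genes, against 1419 of all 12798 genes tested.

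Sharpin cpdm MHC I low cells had 13 of the 44 genes called lower than WT and none higher, against 6.92% of all genes called lower and 5.31% higher, with a median of −0.28. *Smc4* led (−0.50, SE 0.0851, adjusted p = 0.000547, limma), followed by *Nusap1* (−0.74, SE 0.143, adjusted p = 0.000977) and *Iqgap3* (−1.03, SE 0.21, adjusted p = 0.00133). *Iqgap3* stood at 0.541, 0.775 and 0.753 CPM in Sharpin cpdm and at 1.47, 1.53 and 1.41 CPM in WT MHC I low libraries. *Knl1*, the kinetochore scaffold, fell by 0.98, *Hmmr* by 0.85, *Aurkb* by 0.85, *Kif4* by 0.82, *Bub1* by 0.77, *Mki67* by 0.68, *Birc5* by 0.62, *Ccnb2* by 0.61, *Ncapg* by 0.57 and *Prc1* by 0.49. *Cdk1* (−0.28, adjusted p = 0.449), *Top2a* (−0.46, adjusted p = 0.075) and *Foxm1* (−0.22, adjusted p = 0.142, limma) were not called. Without WT mouse 3 the count was 5, without Sharpin cpdm mouse 1 or 2 it was 6 or 7, and edgeR called 5 where limma called 13. The median was −0.45 without WT mouse 2.

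Set against each other in MHC I low cells, Hoil ΔCd4 mice had 24 of the 44 genes called higher than Sharpin cpdm mice and none lower, against 5.12% of all genes called higher and 4.36% lower, with a median of 0.66. *Ccnb2* (1.06, SE 0.155, adjusted p = 2.67e-05, limma), *Smc4* (0.70, SE 0.0959, adjusted p = 9.33e-05) and *Hmmr* (1.52, SE 0.235, adjusted p = 0.000151) had the smallest p-values. *Hmmr* stood at 5.74, 5.97 and 3.87 CPM in Hoil ΔCd4 and 1.35, 1.81 and 2.09 CPM in Sharpin cpdm libraries, and WT, at 3.33, 2.11 and 4.14 CPM, overlapped the former and not the latter. *Kif23* went the other way without being called (−0.23, adjusted p = 0.0577, limma). The count was 13 or 14 without Hoil ΔCd4 mouse 1 or 2, and 10 or 13 without Sharpin cpdm mouse 1 or 2.

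Whether the change between fractions itself differed from WT was tested by interaction. In Sharpin cpdm mice, 32 of the 44 genes had a larger change than in WT and none a smaller one, against 2.2% of all genes called higher and 0.93% lower, with a median of 0.89. *Nusap1* (1.41, SE 0.17, adjusted p = 5.03e-05, limma), *Ccnb2* (1.23, SE 0.164, adjusted p = 5.06e-05) and *Foxm1* (0.77, SE 0.117, adjusted p = 0.00052) led, and *Knl1*, *Iqgap3*, *Aurkb* and *Kif4* had the largest values, from 1.56 to 1.60. For 8 genes, *Ccnb2*, *Aurkb*, *Birc5*, *Knl1*, *Nusap1*, *Kif4*, *Mki67* and *Ncapg*, Sharpin cpdm cells were called both lower than WT in the MHC I low and higher than WT in the MHC I high fraction. The number called of the 44 was 14 without WT mouse 3 and 18 without Sharpin cpdm mouse 2. It fell to 21 without the mouse as a block, to 21 with DESeq2 and to 5 with edgeR (both without a block), and *Ccnb2*, *Foxm1*, *Knl1* and *Nusap1* were called in all 21 other fits and *Iqgap3* in the 20 that tested it.

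In Hoil ΔCd4 mice the interaction was called for 1 of the 44 genes, *Kif23* (0.44, SE 0.0902, adjusted p = 0.0215, limma), against 0.297% of all genes called higher and 0.102% lower. WT had a value below 0 between fractions and Hoil ΔCd4 mice one above 0, and the difference was not called in 10 of 21 other fits, among them those without WT mouse 2 or 3 or Hoil ΔCd4 mouse 1 or 3. In this interaction 23 of the 44 genes had an unadjusted p under 0.05 (limma), against 1338 of all 12798 genes tested. The median of the 44 genes was 0.41, with 43 values above 0, and it was 0.23 without Hoil ΔCd4 mouse 3. Without Hoil ΔCd4 mouse 2 it was 0.37, and 1 gene, *Kif23*, was called, against 0.0547% of all genes in either direction. The other genes nearest the threshold were *Ect2* (0.67, adjusted p = 0.063) and *Smc2* (0.46, adjusted p = 0.063, limma).

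Markers of other thymocyte stages moved with some of these results. The 7 genes of preselection double-positive thymocytes summed to 210 to 229 CPM in WT mice, 287 to 456 CPM in Hoil ΔCd4 and 250 to 340 CPM in Sharpin cpdm MHC I high libraries. Of the 6 that could be tested 5 and 4 were called higher than WT, against 3.84% and 4.15% of all genes. The first count was 2 without Hoil ΔCd4 mouse 2, against 1.34% of all genes in either direction. *Rag1*, which these cells need to rearrange the T-cell receptor alpha gene, had 76.6 to 92.2 CPM, 107 to 174 CPM and 87.1 to 128 CPM. In MHC I low cells the same list summed to 355 to 367 CPM in WT mice, 392 to 435 CPM in Hoil ΔCd4 and 287 to 312 CPM in Sharpin cpdm mice. Between the fractions, 5 of its 6 genes were called lower in WT mice, against 26.8% of all genes. Hoil ΔCd4 mice had 2 of them higher and 1 lower in MHC I high cells, against 23.5% and 21.7% of all genes. Sharpin cpdm mice had 3 higher and 2 lower, against 27.2% and 27.4%. The 7 genes of double-negative and pre-T-cell receptor stages summed to 40.6 to 50.5 CPM in the low and 139 to 166 CPM in the high fraction of WT mice, to 32 to 38.9 and 154 to 165 CPM in those of Hoil ΔCd4 mice, and to 32.6 to 34.9 and 173 to 182 CPM in those of Sharpin cpdm mice. In MHC I high cells 1 of 6 was called higher and 1 lower than WT in Hoil ΔCd4 mice (0 and 1 without mouse 2), against 3.84% and 2.81% of all genes. In Sharpin cpdm mice these counts were 2 and 2, against 4.15% and 4.47%. *Dtx1* and *Kit* made up most of the MHC I high sums. *Ptcra*, which encodes the pre-T-cell receptor alpha chain, had 1.08 to 1.54, 2.69 to 3.36 and 1.58 to 2.53 CPM in MHC I high cells of the 3 genotypes, whereas *Il2ra*, which encodes CD25, had 11.6 to 15.4, 5.93 to 6.88 and 5.2 to 7.73 CPM, and *Erg* was at 0.0826 CPM or less throughout. The part of these cells in the G2/M results was not tested.

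Other lists of cell cycle genes, chosen for their known roles, were counted beside the 44. Of 74 further G2/M genes, 56 were called higher and 6 lower in WT MHC I high than MHC I low cells (median 1.39), against 27.5% and 26.8% of all genes, and in MHC I high cells 29 were called higher in Hoil ΔCd4 and 33 in Sharpin cpdm than in WT, with 0 and 1 lower, against 3.84% and 4.15% of all genes called higher. Without Hoil ΔCd4 mouse 2 the 29 became 6, and 1.34% of all genes were called in either direction. *Espl1* (separase) rose by 2.59, the cytokinesis motor *Kif14* by 2.49 and the F-box gene *Ccnf* by 1.93 in WT mice. In Sharpin cpdm MHC I low cells 8 of the 74 were called lower and 3 higher, against 6.92% and 5.31% of all genes, and 23 had a larger change between fractions than in WT, against 2.2%. All 36 S-phase genes were called higher in MHC I high cells of each genotype, against 27.5%, 23.5% and 27.2% of all genes in WT, Hoil ΔCd4 and Sharpin cpdm mice. In MHC I high cells 20 of them were called higher than WT in Hoil ΔCd4 mice (7 without mouse 2) and 13 in Sharpin cpdm mice, while in Sharpin cpdm MHC I low cells 5 were called higher and 1 lower. The smallest p-values among them in WT mice were those of the DNA ligase *Lig1*, which rose by 1.74, the transcription factor *E2f1*, by 2.20, and the cyclin *Ccne1*, by 2.68.

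Among 27 genes of the MuvB, MYB, E2F and NF-Y regulators and their cyclins, *Myb* fell by 1.58 between the fractions of WT mice (adjusted p = 2.6e-22, limma), *Ccnd2* rose by 1.55 and *E2f2* by 1.44, and 11 were called higher and 5 lower in all, against 27.5% and 26.8% of all genes. In MHC I high cells 6 were called higher than WT in each mutant and none lower, the Hoil ΔCd4 count being 1 without mouse 2. Of all genes, 3.84% were called higher in Hoil ΔCd4 and 4.15% in Sharpin cpdm mice. Of 20 inhibitor and quiescence genes tested out of 22, 10 rose and 5 fell between the fractions of WT mice, against the same background. The smallest p-values were those of *Klf2*, a factor that keeps T cells quiescent (4.31, adjusted p = 3.18e-25, limma), *Pik3ip1* (0.96) and *Foxo1* (1.68). In MHC I high cells 2 of the 20 were called lower than WT in Hoil ΔCd4 mice and 6 in Sharpin cpdm mice and none higher. Of all genes, 2.81% and 4.47% were called lower. *Cdkn1b*, the CDK inhibitor p27, named here after its values were seen, was lower in both (−0.22, adjusted p = 0.00699, and −0.23, adjusted p = 0.0015, limma). Without Hoil ΔCd4 mouse 2, 0 of the 20 were called in Hoil ΔCd4 mice.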

How the data were processed

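Per the labels and the study's methods, the authors sequenced messenger RNA libraries from single ends, mapped reads to mm10 with the subread aligner and deposited whole-number counts per Entrez gene from featureCounts, with no normalization and no pooling. Versions and the strand setting were not given in the sources used here. From the counts, genes with at least 0.5 CPM in 3 samples were kept, and predicted, unnamed and Y-linked genes and *Xist* were removed, leaving 12798. Counts were TMM-scaled (factors 0.9873 to 1.015) and log2 CPM was taken, adding a prior count of 1. limma 3.58.1 (R 4.3.3) fitted the 6 groups to all samples with quality weights, the mouse as a random block (correlation 0.224) and a robust abundance trend. Fractions of 1 mouse are the same animal, and their deviations correlated in all 9 mice (Pearson r 0.0702 to 0.256). edgeR 4.0.16 and DESeq2 1.42.0 were alternatives. The model fits were also run on simulated data with changes set in 1 group. Those data had no mouse effect, so they cannot test the mouse block. No 2 replicates agreed within sampling noise.

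The 44 genes, the other lists and the tests were chosen with earlier results of these data known. Values in every library are given for *Mki67*, *Top2a*, *Cdk1*, *Ccnb1*, *Ccnb2*, *Foxm1* and the gene with the highest mean CPM of each role, and other genes were named by role, by the 3 smallest p-values per comparison and direction, or by a call in an interaction. *Racgap1* was added as the partner of *Kif23* after values were seen, as were single values of *Ect2*, *Iqgap3*, *Hmmr* and genes quoted for the size of their change. Promoter letters are those of RefSeq on GRCm38.p6. Intervals cover the spread between mice. RPKM used the gene length deposited with the counts.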

Additional observations from a re-analysis of the deposited data

Results flagged for a closer look

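The change between fractions (MHC I high minus MHC I low) differed between Sharpin cpdm and WT mice for 32 of the 44 genes, by the interaction test in limma with adjustment over all genes, and each value below is the Sharpin cpdm change minus the WT change on the log2 scale. Among CDK1 and cyclin genes it was 1.23 for *Ccnb2*, 0.995 for *Cdk1*, 0.924 for *Ccna2*, 0.767 for *Foxm1* and 0.623 for *Cdca3*. Among kinases it was 1.37 for *Bub1*, 0.743 for *Aurka* and 0.633 for *Bub1b*, and for the anaphase genes 0.749 for *Cdc20* and 0.732 for *Ube2c*. The passengers had 1.58 for *Aurkb*, 1.19 for *Birc5* and 0.661 for *Cdca8*, and the kinetochore genes 1.6 for *Knl1* and 1.19 for *Nuf2*. Spindle genes had 1.41 for *Nusap1*, 1.21 for *Kif2c*, 1.19 for *Hmmr*, 1.09 for *Tpx2*, 0.984 for *Ckap2l* and 0.8 for *Kif11*. Cytokinesis genes had 1.58 for *Iqgap3*, 1.56 for *Kif4*, 1.26 for *Anln*, 0.872 for *Prc1*, 0.638 for *Kif20a*, 0.603 for *Ect2* and 0.515 for *Racgap1*, and chromosome structure genes 1.31 for *Mki67*, 1.11 for *Ncapg*, 1.03 for *Top2a* and 0.474 for *Smc2*.

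For Hoil ΔCd4 mice the same test called *Kif23* (0.44). Values of preselection markers moved with the Sharpin cpdm interaction, 4 of 6 tested being called larger against 2.2% of all genes, and their part in it was not tested.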

How the results depend on the processing

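No call reversed in any of the 21 other fits, and the median difference of the 44 genes stayed within 1 SD in 228 of 231 recomputed values. The exceptions, each with 1 mouse left out, were the WT change between fractions (range 1.84 to 1.99), Sharpin cpdm against WT in MHC I low cells (−0.45 to −0.18) and the Hoil ΔCd4 interaction (0.23 to 0.57). Numbers of genes called moved more, and the shares of all genes called in the same fits are not given beside them. Leaving out 1 mouse gave 0 to 2 for Hoil ΔCd4 against WT in MHC I low and 10 to 38 in MHC I high cells, 5 to 15 and 12 to 38 for Sharpin cpdm against WT, 10 to 24 for Hoil ΔCd4 against Sharpin cpdm in MHC I low cells, and 0 to 2 and 14 to 34 for the Hoil ΔCd4 and Sharpin cpdm interactions. Without quality weights 22 and 16 were called in MHC I high cells of Hoil ΔCd4 and Sharpin cpdm mice. For Hoil ΔCd4 against WT in MHC I low cells DESeq2 called 2, and 0 were called without a low-count filter or with only the compared groups fitted. edgeR called 5 in Sharpin cpdm MHC I low cells. For the Hoil ΔCd4 interaction edgeR, DESeq2 and the fit with no low-count filter called 0, and asking for 10 counts in every sample called 3. For the Sharpin cpdm interaction edgeR called 5 and DESeq2 21. Counts of the other lists without Hoil ΔCd4 mouse 2 were added after seeing the data. The causes were not tested. The fractions of a mouse are paired by animal, so the mouse is a random block in the main limma fit, while edgeR and DESeq2 had no block. Without the replicate block 0 and 21 genes were called in the Hoil ΔCd4 and Sharpin cpdm interactions, with the mouse number as a fixed block 0 and 23, and no other count moved by over 1.5 times. The mouse number joins different mice across genotypes, so that fixed block does not pair the fractions by animal. Counting only bases before the start, 36.8% of promoters held TTTGAA, 39.5% CHR letters and 34.2% both elements. Depth limits *Ccnb1*, *Ttk* and *Iqgap3* most. Sex is partly confounded with genotype, and strain with the Sharpin cpdm genotype.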

Other observations

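Among markers of thymocyte stages, 6 genes of mature single-positive thymocytes summed to 702 to 724 CPM in WT MHC I low and 1480 to 1580 CPM in WT MHC I high libraries, to 600 to 638 and 1310 to 1340 CPM in Hoil ΔCd4 mice and to 823 to 847 and 1430 to 1600 CPM in Sharpin cpdm mice. Of the 6, 5 were called higher and 1, *Il7r*, lower in MHC I high cells of each genotype, against 21.7% to 27.5% of all genes in each direction. *Il7r* made up much of the MHC I low sums, with means of 384 CPM in WT, 318 CPM in Hoil ΔCd4 and 462 CPM in Sharpin cpdm mice. Its MHC I high means were 286, 250 and 337 CPM. Of the further G2/M genes, *Cdc25b*, *Cenpt*, *Mis12*, *Hjurp*, *Zwint* and *Lmnb1* were called lower in WT MHC I high than MHC I low cells, as *Kif23* was. *Nek2*, a centrosome kinase, was the only one of the 74 called in Hoil ΔCd4 MHC I low cells (0.85 above WT, adjusted p = 0.0419, limma, and not called without Hoil ΔCd4 mouse 2), and *Mis12* the only one called lower in Sharpin cpdm than WT MHC I high cells (−0.21, adjusted p = 0.0258). These genes were named after their values were seen.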
